A study of Homo sapiens with 12 samples.

Results

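The carbonic anhydrase genes described here are CA2, CA8, CA9, CA11, CA12, CA13 and CA14, 7 of the 60664 genes counted in MDA-MB-231, a human breast cancer line with a mesenchymal character that lacks the hormone receptors. They were chosen by gene symbol as members of the carbonic anhydrase family, and all 7 symbols matched a single gene of the table. Poly(A) RNA was sequenced from wild type cells kept for 24 h in high glucose medium with serum at pH 6.4, pH 6.9 or pH 7.4, and each medium has 4 libraries, numbered as repeats 1 to 4. All flasks had first grown at pH 7.4 and were held in the same incubator atmosphere, so acidity of the medium was the labelled difference. The sample labels name the intermediate medium pH 6.9 while the protocol gives pH 6.7, and the label is used here. The series title concerns dissemination of tumour cells under acidosis and low oxygen. By their labels, the libraries analysed here differ in acidity and repeat number. Whether other components of the media, such as bicarbonate, changed along with acidity was not tested. Everything rests on 1 cell line, and separate cultures are not stated, so p-values measure the spread between these samples.

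Carbonic anhydrases interconvert carbon dioxide and bicarbonate with release or uptake of a proton. In acid-exposed tumours the membrane enzymes CA9 and CA12 hold their active site outside the cell, where they hydrate carbon dioxide that has left it, while soluble enzymes such as CA2 and CA13 work in the cytosol beside bicarbonate and proton transporters. CA9 is a classical target of the hypoxia-inducible factors, and CA12 is known in breast tumours as a gene switched on by the oestrogen receptor. CA8 and CA11 are related proteins that lack catalytic activity, and CA8 binds the inositol trisphosphate receptor ITPR1.

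Motifs near the starts of the membrane enzymes CA9 and CA12 are shown because both genes had their highest mean at pH 6.9 (values below). CA13 also had its highest mean there, but had no window among those searched. The 250 bases before each gene's RefSeq start (GRCh38.p14) were searched on both strands for the core of the hypoxia response element (ACGTG or GCGTG) and for the AP-1 motif TGANTCA. The GENCODE annotation, from which the gene coordinates below are taken, begins both genes further upstream, so 72 of the 250 bases for CA9 and all 250 for CA12 lie in its untranslated first exon. Each line gives 30 bases around a match, 5′ to 3′ on the gene's strand, with the motif in capitals, where CACGT and CACGC are the cores read from the other strand. They lie at chr9:35673839-35673868 and chr9:35673898-35673927 (plus strand) for CA9 and at chr15:63382063-63382092 (minus strand) for CA12.
CA9 AP-1: aagggcgctctgTGAGTCAgcctgctcccc
CA9 core: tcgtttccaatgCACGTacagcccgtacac
CA12 core: gcggatctcaccCACGCctgccagcagctc

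Counted from the RefSeq start, the first letter of the CA9 core lay at -18 and that of the AP-1 motif at -77. The CA12 window held 1 GCGTG core, at -234, and no AP-1 motif. Windows of other family genes held such cores as well, with 6 GCGTG for CA5B, 2 for CA5A and 1 ACGTG for CA6. Those of CA7, CA10 and CA14 held neither core. ACGTG was found in 18.5%, GCGTG in 32.2%, either core in 43.2% and TGANTCA in 6.57% of 35116 promoter windows of the same length, both strands searched. The motifs do not overlap each other in the CA9 and CA12 windows, and a match describes the letters only.

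Total counts ran from 21060767 to 50643233 per library. Repeat 1 at pH 7.4, with 17841 detected genes, and repeat 2 at pH 6.9, with 21628, had fewer than the other libraries, which had at least 23113. On the first principal component, which ran from the pH 7.4 to the pH 6.4 libraries, repeat 3 at pH 6.4 lay at 9.74 while the other pH 6.4 libraries lay between 32.23 and 53.34, those at pH 6.9 between -13.89 and -3.91 and those at pH 7.4 between -40.35 and -20.74. Fold changes that rest on repeat 3 at pH 6.4 are given with and without it. All 6 markers of the mesenchymal state averaged over 1 CPM and together summed to 6490 to 7750 CPM at pH 6.4, 5730 to 6230 CPM at pH 6.9 and 5610 to 5920 CPM at pH 7.4. Among these markers VIM (log2 0.55, adjusted p = 0.00109) and CD44 (log2 0.87, adjusted p = 0.000174) were higher at pH 6.4 than at pH 7.4. So were ZEB1 (log2 0.61, adjusted p = 0.00142), MSN (log2 0.52, adjusted p = 0.00588) and AXL (log2 0.37, adjusted p = 0.00364). CAV1 was lower there (log2 -0.77, adjusted p = 0.000238). The oestrogen receptor gene ESR1 stayed at or under 0.278 CPM in every library. The 4 erythroid markers, which would accompany red cell carbonic anhydrases, summed to at most 0.179 CPM. The 5 leukocyte markers summed to 0.488 to 1.22 CPM at pH 6.4, 0.675 to 1.15 CPM at pH 6.9 and 0.174 to 1.86 CPM at pH 7.4, with 1 of them at 0 in all libraries. The 3 endothelial markers summed to 6.8 to 9.63, 4.98 to 8.14 and 5.95 to 13.2 CPM in the same media, almost all of it PECAM1. The 7 luminal markers, of which 3 averaged under 1 CPM, summed to 93 to 114 CPM at pH 6.4, 118 to 123 CPM at pH 6.9 and 119 to 134 CPM at pH 7.4. Of this sum ERBB2 averaged 74.4 CPM at pH 6.4, 86.4 CPM at pH 6.9 and 87.6 CPM at pH 7.4. Among the luminal markers CDH1 was called lower at pH 6.4 than at pH 7.4 (log2 -1.76, adjusted p = 0.00776), while ERBB2, GATA3 and EPCAM were not called. The part of these markers in the results below was not tested. In such bulk RNA, fewer cells that express a gene and less of its RNA per cell cannot be told apart.

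Of the 7 genes, CA2, CA9, CA11, CA12 and CA13 passed the filter on low counts and CA8 and CA14 did not. CA8 had 4 reads in all, 3 in repeat 1 at pH 6.4 and 1 in repeat 1 at pH 6.9. CA14, a further membrane enzyme, had 1 read, in repeat 3 at pH 6.9. No fold change is given for either.

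Per kb of exon, CA9 was the most abundant of the family in all 12 libraries. Its level averaged 5.14 ± 2.29 CPM per kb at pH 6.4, 7.22 ± 1.57 at pH 6.9 and 3.76 ± 0.679 at pH 7.4 (n = 4 each, ± SD). CA13 came next by mean, at 2.38 ± 0.391, 2.96 ± 0.228 and 2.85 ± 0.304 CPM per kb in the same media. CA5B, a family gene outside the 7, followed at 2.12 ± 0.137, 1.98 ± 0.187 and 1.89 ± 0.0789, with CA13 higher in 10 of 12 libraries. CA12, at 1.54 ± 0.396, 1.80 ± 0.249 and 1.08 ± 0.233 CPM per kb, and CA11, at 1.09 ± 0.337, 1.64 ± 0.373 and 1.70 ± 0.161, had no fixed order, with CA11 higher in 5 of 12 libraries. CA2, the fast cytosolic enzyme, was lowest of the tested members with 0.248 ± 0.129, 0.436 ± 0.226 and 0.498 ± 0.217 CPM per kb, below CA12 in all 12 libraries. Lengths are those of all annotated exons joined, so these levels understate genes that use few of them.

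**Figure D1:**
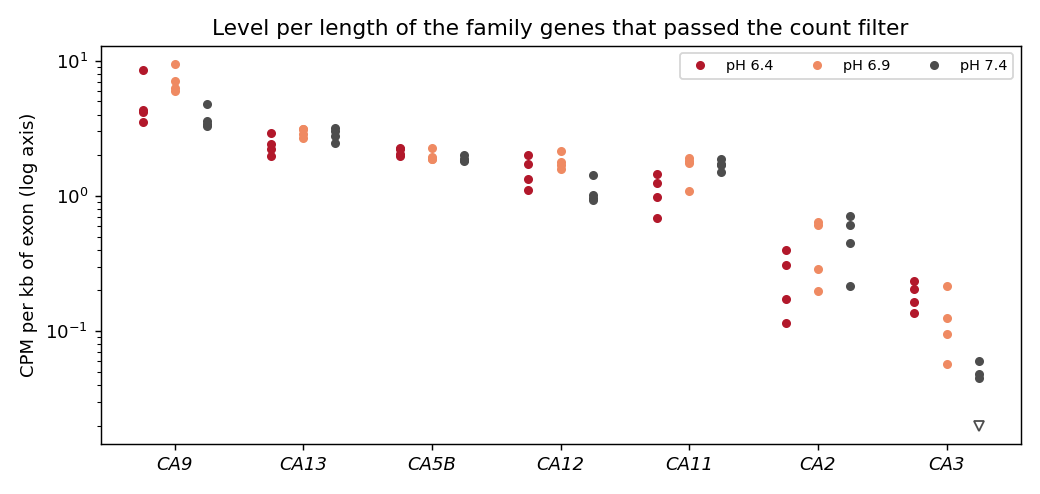
Level of each family gene that passed the count filter, in CPM per kb of exon on a log axis, with 1 point per library at pH 6.4, pH 6.9 and pH 7.4; the open triangle stands for a library with no CA3 read and marks no value. CA9 lies highest and CA2 and CA3 lowest.

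CA9 (ENSG00000107159, chromosome 9 from 35673856 to 35681159, plus strand, GRCh38), the hypoxia-linked membrane enzyme, had 7.02, 5.85, 14.3 and 7.26 CPM in repeats 1 to 4 at pH 6.4, 11.9, 9.94, 15.8 and 10.6 CPM at pH 6.9 and 7.95, 5.64, 6.0 and 5.51 CPM at pH 7.4. All pH 6.9 libraries lay above all pH 7.4 libraries, whereas the pH 6.4 libraries other than repeat 3 lay within the pH 7.4 range. At pH 6.9 it was 1.92-fold the pH 7.4 level, higher in 4 of 4 repeats (log2 0.94, SE 0.25, 95% interval 0.40 to 1.48), which missed the threshold over all genes (edgeR's quasi-likelihood test, Benjamini-Hochberg adjusted p = 0.114). With the repeat number as a block the rise at pH 6.9 passed (log2 0.90, SE 0.18, adjusted p = 0.017), as it did by DESeq2 (adjusted p = 0.0126). Without repeat 1 at pH 7.4 and repeat 2 at pH 6.9, the libraries with the fewest genes, the value was 1.16 (adjusted p = 0.225). Repeats 1 and 2 alone gave a log2 value of 0.70, and repeats 3 and 4 alone gave 1.19.

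At pH 6.4 CA9 was lower than at pH 6.9 in 4 of 4 repeats (log2 -0.48, SE 0.25, adjusted p = 0.203), and this passed with the block (log2 -0.53, SE 0.18, adjusted p = 0.0451). Repeats 1 and 2 alone gave -0.76 (adjusted p = 0.0745), and repeats 3 and 4 alone gave -0.27 (adjusted p = 0.652). Without repeat 3 at pH 6.4 the difference was -0.84 (adjusted p = 0.00449), and that omission also brought the rise at pH 6.9 over pH 7.4 past the threshold (log2 0.94, adjusted p = 0.0163). Between pH 6.4 and pH 7.4 the log2 value for CA9 was 0.46 (95% interval -0.09 to 1.00, adjusted p = 0.193). It was 0.10 without repeat 3 at pH 6.4. Repeats 1 and 2 alone gave -0.07, and repeats 3 and 4 alone gave 0.92.

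Exons of ARHGEF39, a gene on the opposite strand, cover 38.5% of the exon bases of CA9, and the sources used here do not give the strand setting of the counting. ARHGEF39 had 8.63, 5.09, 14.8 and 6.78 CPM in repeats 1 to 4 at pH 6.4, 10.9, 12.4, 14.1 and 12.2 CPM at pH 6.9 and 11.5, 8.21, 8.01 and 9.88 CPM at pH 7.4. Its level, like that of CA9, was highest on average at pH 6.9 and high in repeat 3 at pH 6.4. Across the 12 libraries, which share their depth and media for both genes, Pearson's r of the log2 levels of CA9 and ARHGEF39 was 0.79 and Spearman's rank correlation 0.77. Without repeat 3 at pH 6.4 these were 0.74 and 0.71 (n = 11). Between pH 6.9 and pH 7.4 the log2 value of ARHGEF39 was 0.40 (adjusted p = 0.597), against 0.94 for CA9. How far reads of ARHGEF39 enter the counts of CA9 was not tested.

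**Figure D2:**
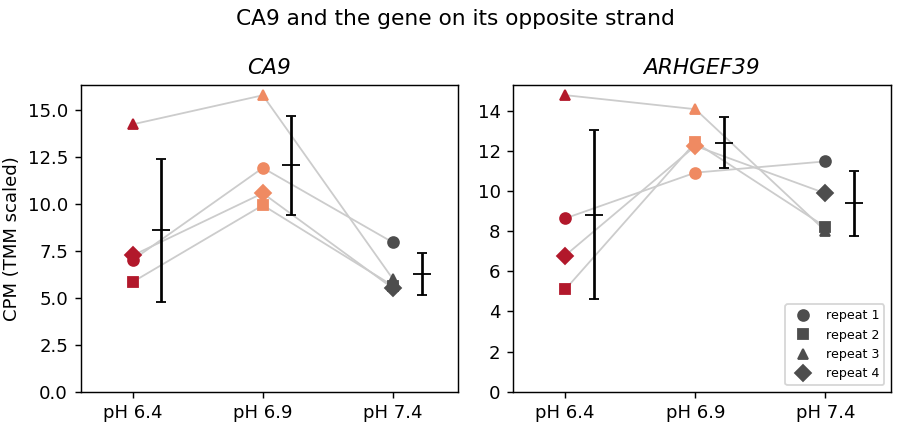
CPM of CA9 (left) and of ARHGEF39 (right) in each library at pH 6.4, pH 6.9 and pH 7.4, with symbols for repeats, grey lines joining libraries of the same repeat and bars for mean ± SD (n = 4). Repeat 3 at pH 6.4 is the highest of its group for both genes, at 14.3 CPM for CA9 and 14.8 CPM for ARHGEF39.

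CA12 (ENSG00000074410, chromosome 15 from 63321378 to 63382161, minus strand), the other membrane enzyme with appreciable reads, had 12.5, 9.71, 14.7 and 8.15 CPM in repeats 1 to 4 at pH 6.4, 15.8, 12.4, 12.9 and 11.6 CPM at pH 6.9 and 6.79, 10.5, 7.08 and 7.36 CPM at pH 7.4. The pH 6.9 libraries all lay above those at pH 7.4, and the pH 6.4 libraries overlapped both other groups. No other annotated gene overlaps CA12. At pH 6.9 it was 1.66-fold the pH 7.4 level and higher in 4 of 4 repeats (log2 0.73, SE 0.19, 95% interval 0.32 to 1.15, adjusted p = 0.11). With the block this rise passed (log2 0.72, SE 0.18, adjusted p = 0.0434), and likewise by DESeq2 (adjusted p = 0.0128). Without the libraries with the fewest genes it was 0.69 (adjusted p = 0.39).

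At pH 6.4 CA12 was 1.42-fold the pH 7.4 level and higher in 3 of 4 repeats (log2 0.50, SE 0.19, 95% interval 0.09 to 0.92), which missed the threshold (adjusted p = 0.063, and 0.0565 with the block). It passed by DESeq2 (adjusted p = 0.0334), without repeat 4 at pH 6.4 (log2 0.63, adjusted p = 0.0294) and without repeat 2 at pH 7.4 (log2 0.67, adjusted p = 0.0209), the pH 7.4 library with the most CA12. Without repeat 3 at pH 6.4, the pH 6.4 library with the most CA12, it was 0.35 (adjusted p = 0.163), and 0.28 (adjusted p = 0.271) when repeat 1 at pH 7.4 was left out as well. Repeats 1 and 2 alone gave 0.36, and repeats 3 and 4 alone gave 0.67. Between pH 6.4 and pH 6.9 the difference of CA12 was -0.23 (95% interval -0.64 to 0.18, adjusted p = 0.458).

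**Figure D3:**
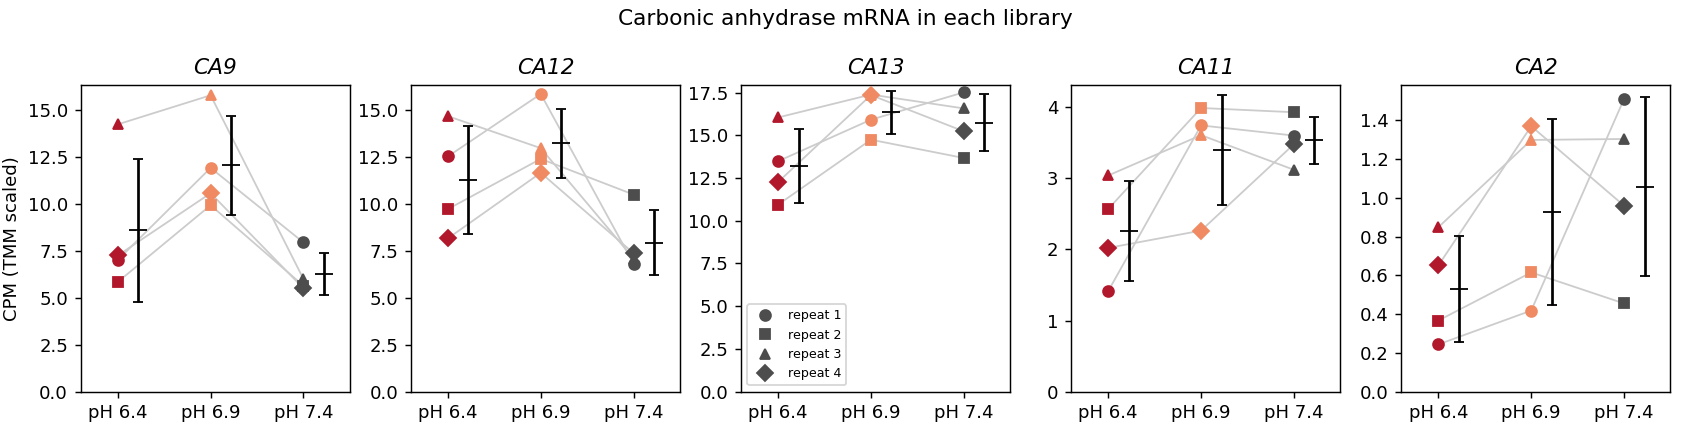
CPM of the 5 tested genes in each library at pH 6.4, pH 6.9 and pH 7.4; symbols give the repeat, grey lines join libraries of the same repeat, and bars give mean ± SD (n = 4). For CA9 and CA12 the pH 6.9 libraries lie above all pH 7.4 libraries, and for CA11 all pH 6.4 libraries lie below the pH 7.4 libraries.

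CA13 (ENSG00000185015), a cytosolic enzyme on chromosome 8, had 13.5, 10.9, 16.0 and 12.3 CPM in repeats 1 to 4 at pH 6.4, 15.9, 14.7, 17.4 and 17.3 CPM at pH 6.9 and 17.5, 13.7, 16.6 and 15.2 CPM at pH 7.4. The groups overlapped, but within each repeat the pH 6.4 library was the lowest of the 3 media. Against pH 7.4 the pH 6.4 level differed by -0.25 on the log2 scale (SE 0.13, adjusted p = 0.163) and against pH 6.9 by -0.31 (SE 0.13, adjusted p = 0.123). With the block both falls passed (log2 -0.26, adjusted p = 0.0462, and log2 -0.32, adjusted p = 0.0255). Both also passed without repeat 3 at pH 6.4, at -0.36 (adjusted p = 0.0367) and -0.42 (adjusted p = 0.0222). Between pH 6.9 and pH 7.4 the log2 value of CA13 was 0.05 (95% interval -0.23 to 0.34).

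CA11 (ENSG00000063180, chromosome 19 from 48637942 to 48646312, minus strand), the secreted protein without catalytic activity, had 1.41, 2.57, 3.04 and 2.02 CPM in repeats 1 to 4 at pH 6.4, 3.74, 3.99, 3.61 and 2.26 CPM at pH 6.9 and 3.6, 3.93, 3.12 and 3.48 CPM at pH 7.4. All pH 6.4 libraries lay below all pH 7.4 libraries, repeat 3 by the least. The level at pH 6.4 was 1.56-fold lower than at pH 7.4 (log2 -0.64, SE 0.25, 95% interval -1.18 to -0.11, adjusted p = 0.0647). With the block this fall passed (log2 -0.68, SE 0.23, adjusted p = 0.0348), as it did by DESeq2 (adjusted p = 0.0407), with library size only (log2 -0.72, adjusted p = 0.0442) and without repeat 3 at pH 6.4 (log2 -0.82, adjusted p = 0.0233). Repeats 1 and 2 alone gave -0.91, and repeats 3 and 4 alone gave -0.37. Against pH 6.9 the CA11 value at pH 6.4 was -0.59 (adjusted p = 0.12), and -0.76 (adjusted p = 0.0396) without repeat 3 at pH 6.4. For that comparison repeats 1 and 2 alone gave -0.95 (adjusted p = 0.139), and repeats 3 and 4 alone gave -0.18 (adjusted p = 0.766).

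CA2 (ENSG00000104267), the cytosolic enzyme known to work beside bicarbonate transporters, had 10, 17, 36 and 19 reads in repeats 1 to 4 at pH 6.4, 21, 31, 36 and 52 reads at pH 6.9 and 52, 22, 28 and 43 reads at pH 7.4. Its mean level was 0.527 ± 0.273 CPM at pH 6.4, 0.925 ± 0.479 CPM at pH 6.9 and 1.06 ± 0.461 CPM at pH 7.4 (n = 4 each, ± SD). The groups overlapped, with the pH 6.4 library below the pH 7.4 library in 4 of 4 repeats. The log2 value for pH 6.4 against pH 7.4 was -0.99 with a 95% interval of -2.10 to 0.12 (adjusted p = 0.167). Neither the block (adjusted p = 0.0827) nor DESeq2 called CA2.

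Counted together, edgeR's quasi-likelihood test called 0 of the 5 tested genes in each of the 3 comparisons, with 2 of 5 at an unadjusted p under 0.05 each time. By this test at least 6926 of the 17544 genes reached that p for pH 6.4 against pH 7.4. For pH 6.9 against pH 7.4 at least 2015 did, and for pH 6.4 against pH 6.9 at least 5349. Over all 17544 genes tested the same test called 30.3% for pH 6.4 against pH 7.4, 0.724% for pH 6.9 against pH 7.4 and 17% for pH 6.4 against pH 6.9. By direction, 15.6% were higher and 14.7% lower in the first comparison, 0.313% and 0.41% in the second and 8.83% and 8.2% in the third. Blocked by repeat number, the test called 2 of 5 in every comparison, namely CA11 and CA13 lower at pH 6.4 than at pH 7.4, CA9 and CA12 higher at pH 6.9 than at pH 7.4, and CA9 and CA13 lower at pH 6.4 than at pH 6.9. The block called 41.6%, 5.4% and 31.1% of all genes in the same comparisons (21.4% higher and 20.2% lower, 2.96% higher and 2.44% lower, 16.1% higher and 15% lower), so the count for pH 6.4 against pH 7.4 lay near the share of all genes. DESeq2 called 2, 2 and 0 of the 5 genes in these comparisons, and limma voom called 0 in each. The shares of all genes called by DESeq2 and limma voom are not given, here or below, so their counts have no background beside them. Libraries of the groups did not overlap for CA11 between pH 6.4 and pH 7.4, as for 27.9% of all genes, and for CA9 and CA12 between pH 6.9 and pH 7.4, as for 10.1% of all genes. None of the 5 had groups without overlap between pH 6.4 and pH 6.9, where 20.4% of all genes did. The 5 genes had a median log2 value of -0.25, 0.05 and -0.48 in the 3 comparisons, against medians of -0.00083, 0.0093 and -0.014 over all genes. The first and second of these comparisons share the pH 7.4 libraries.

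**Figure D4:**
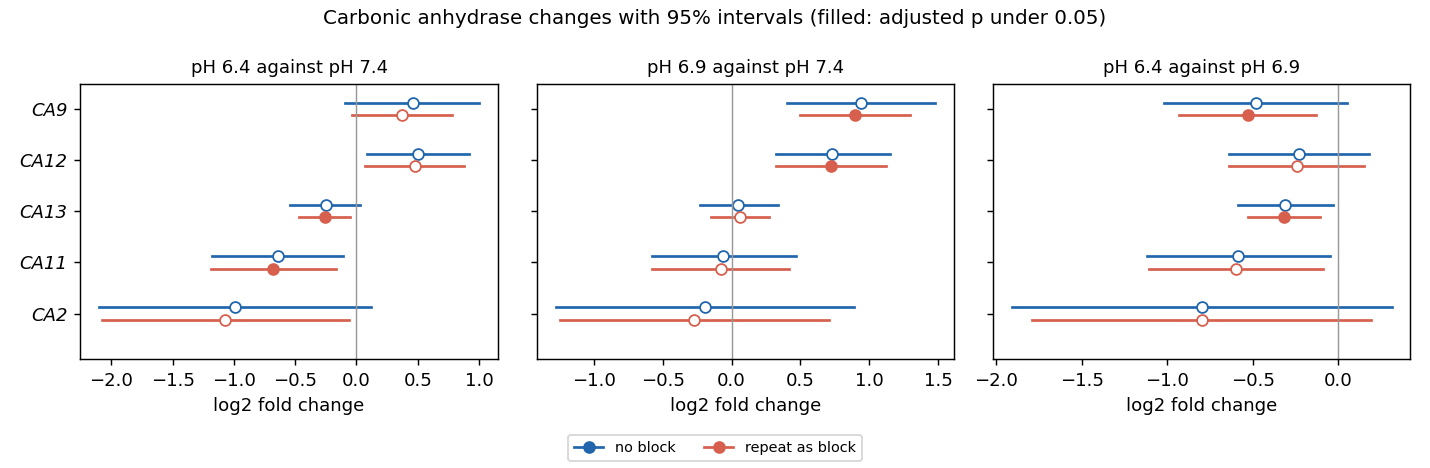
Log2 fold changes (x axis) of the 5 tested genes in the 3 comparisons with 95% intervals, without a block (blue) and blocked by repeat number (red); filled points have an adjusted p under 0.05. CA9 and CA12 lie to the right of 0 at pH 6.9 against pH 7.4, and CA13 and CA11 lie to the left of 0 at pH 6.4 against pH 7.4.

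The pH 6.9 level was also set against the midpoint of the pH 6.4 and pH 7.4 levels, a contrast chosen after the values were seen. CA9 lay above the midpoint by 0.71 (SE 0.21, adjusted p = 0.357) and CA12 by 0.48 (SE 0.16, adjusted p = 0.36) on the log2 scale. With the block the values were 0.72 (adjusted p = 0.112) and 0.48 (adjusted p = 0.142). edgeR called 0% of all genes in this contrast with or without the block, the 5 carbonic anhydrases included. At the looser threshold of an unadjusted p under 0.05 stood 2 of the 5 without the block and 3 with it. The share of all genes at that looser threshold is not given here, so these counts have no background beside them.

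Ratios of reads within a library do not depend on how libraries are scaled, and those given here were chosen after the values were seen. The membrane enzyme CA9 had 0.521 to 0.888 reads per read of cytosolic CA13 at pH 6.4, 0.610 to 0.909 at pH 6.9 and 0.362 to 0.454 at pH 7.4. Both acid media thus lay wholly above pH 7.4 in this ratio, and overlapped each other. The share of other gene pairs with such a separation is not given, so it has no background beside it. CA9 alone overlapped between pH 6.4 and pH 7.4, while CA13 was lower at pH 6.4 in 4 of 4 repeats, so both genes enter the ratio. CA12 had 0.665 to 0.928 reads per read of CA13 at pH 6.4, 0.671 to 0.995 at pH 6.9 and 0.388 to 0.767 at pH 7.4, where the groups overlapped. Between CA9 and CA12 the ratio averaged 0.757 ± 0.206 at pH 6.4, 0.922 ± 0.209 at pH 6.9 and 0.826 ± 0.263 at pH 7.4 (n = 4 each, ± SD), with differences smaller than these SDs.

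Over the 12 libraries the level of CA9 went with that of CA12 (Pearson's r 0.71) and CA2 with CA13 (r 0.76), while CA12 and CA13 (r 0.07) and CA11 and CA12 (r -0.01) did not go together. Without repeat 1 at pH 7.4 these values were 0.78, 0.72, 0.27 and 0.09. CA2 and CA13 lie in the same gene cluster on chromosome 8 and on the same strand. The genes most alike in pattern, by Pearson's r of log2 CPM over the 12 libraries, were for CA9 the matrix protein gene FBLN7 (0.923), the mitochondrial myosin MYO19 (0.91) and RGL3 (0.909). For CA12 they were TSPOAP1 (0.948), the kinetochore gene NDC80 (0.94) and LANCL1 (0.94). For CA13 they were the chromatin assembly factor CHAF1A (0.96), the phosphatase inhibitor ENSA (0.958) and CDCA7 (0.958), and for CA11 the semaphorin SEMA5A (0.847), the receptor ligand GAS6 (0.845) and SAP30L (0.841). These are descriptions over libraries that share media, depth and repeats.

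Of the 8 other human carbonic anhydrase genes, only CA3 and CA5B passed the count filter. CA3, a cytosolic enzyme best known from muscle and a neighbour of CA2, had 13, 25, 20 and 11 reads in repeats 1 to 4 at pH 6.4, 11, 25, 8 and 5 reads at pH 6.9 and 0, 5, 3 and 5 reads at pH 7.4. All pH 6.4 libraries lay above those at pH 7.4, and CA3 was called higher there (log2 2.26, SE 0.68, 95% interval 0.79 to 3.72, adjusted p = 0.0223). The call was lost without repeat 2 at pH 6.4 (log2 2.12, adjusted p = 0.0688), without the filter on low counts (adjusted p = 0.0503) and within repeats 1 and 2 (log2 2.90, adjusted p = 0.214) or 3 and 4 (log2 1.80, adjusted p = 0.0777). Exons of the antisense gene CA3-AS1, which had 0, 2, 5 and 3 reads at pH 6.4 and 30, 0, 3 and 7 reads at pH 7.4, cover 7.1% of the exon bases of CA3. CA5B, the mitochondrial enzyme, had 18.1 ± 1.19 CPM at pH 6.4, 16.9 ± 1.61 CPM at pH 6.9 and 16.1 ± 0.678 CPM at pH 7.4 (n = 4 each, ± SD), with a log2 value of 0.17 for pH 6.4 against pH 7.4 (95% interval -0.05 to 0.39, adjusted p = 0.228). Reads of CA5B could belong in part to its pseudogene CA5BP1. CA6 had 8 reads in all libraries together, CA7 had 5, CA1 and CA10 had 1 each, and CA4 and CA5A had 0, which allows up to 0.0063 CPM over all libraries.

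The partners of these enzymes were read from lists of genes named for their roles or gene families. Of 15 genes listed by family as bicarbonate transporters 10 were tested, and whether each carries bicarbonate here was not tested. At pH 6.4 against pH 7.4 4 rose and 2 fell, where 15.6% of all genes were called higher and 14.7% lower. The lowest p belonged to SLC4A2, an anion exchanger that exports bicarbonate (log2 -1.04, adjusted p = 0.000107). Next came the sodium-bicarbonate importer SLC4A7 (log2 1.15, adjusted p = 0.000518) and SLC4A11, which is listed by family (log2 -0.63, adjusted p = 0.00527). The sodium-bicarbonate importer SLC4A4 followed (log2 1.66, adjusted p = 0.00858). The replicate block called 5 higher and 2 lower, with SLC26A6 added, beside 41.6% of all genes called. At pH 6.9 against pH 7.4 edgeR called 0 of the 10 (2 at an unadjusted p under 0.05), the replicate block called SLC4A11 lower, DESeq2 called SLC4A4 higher and limma voom called 0. At pH 6.4 against pH 6.9 SLC4A7 (log2 1.29) and SLC26A6 (log2 0.39) rose and SLC4A2 fell (log2 -0.81). The block called 2 higher and 2 lower there, with SLC4A11 added. Of all genes 17% were called without the block and 31.1% with it. The median log2 value of the tested genes of this list was 0.36, -0.10 and 0.31 in the 3 comparisons. Of 14 proton and lactate exporters 9 were tested, and edgeR without a block called 0 in each comparison (2, 0 and 2 at an unadjusted p under 0.05), with medians of 0.02, 0.05 and -0.18. With the replicate block 1 was higher and 2 were lower at pH 6.4, both against pH 7.4 and against pH 6.9. The block called 41.6% and 31.1% of all genes in these comparisons. At pH 6.9 against pH 7.4 the block called 0 of the exporters. DESeq2 called 2, 0 and 1 of the exporters, and limma voom 1, 0 and 0. Without the block the lactate exporter SLC16A3 and its chaperone BSG stood at -0.19 (adjusted p = 0.307) and 0.02 (adjusted p = 0.876) for pH 6.4 against pH 7.4, at 0.11 (adjusted p = 0.827) and -0.05 (adjusted p = 0.914) for pH 6.9 against pH 7.4, and at -0.30 (adjusted p = 0.133) and 0.07 (adjusted p = 0.655) for pH 6.4 against pH 6.9.

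The oxygen-sensing genes that govern CA9 elsewhere gave 2 rises and 1 fall among 12 tested of 13 at pH 6.4 against pH 7.4, namely the partner subunit ARNT (log2 0.42), the ubiquitin ligase gene VHL (log2 0.35) and the factor EPAS1 (log2 -0.53). These 3 of 12 stand beside 30.3% of all genes called. The replicate block called 5 higher and 3 lower in the same comparison, beside 41.6% of all genes called. At pH 6.9 against pH 7.4 edgeR called 0 (3 at an unadjusted p under 0.05), as did DESeq2 and limma voom, and the block called 1 higher and 1 lower, ARNT2 and EPAS1 between them. There HIF1A stood at -0.21 (adjusted p = 0.382) and CITED2 at -0.15 (adjusted p = 0.649). HIF1A (log2 0.44, adjusted p = 0.00811) and ARNT (log2 0.46) rose at pH 6.4 over pH 6.9. The median log2 value of the list was 0.11, -0.04 and 0.01 in the 3 comparisons. Of 22 other hypoxia targets 4 rose and 1 fell at pH 6.4 against pH 7.4, with the vessel growth factor VEGFA at 0.82, the oxidoreductase ERO1A at 0.43, the collagen-crosslinking LOX at 0.57 and ANKRD37 at -0.83. The replicate block called 5 higher and 4 lower. Of all genes 30.3% were called without the block and 41.6% with it in this comparison, so neither count of hypoxia targets exceeds the share of all genes. At pH 6.9 against pH 7.4 edgeR called 0 of the 22 (8 at an unadjusted p under 0.05), as did DESeq2 and limma voom. By edgeR at least 2015 of all 17544 genes had an unadjusted p under 0.05 there. The block called 1 higher and 1 lower, ADM and ERO1A between them, beside 5.4% of all genes called. Among the 8, edgeR placed DDIT4 (log2 0.35), BNIP3 (0.31), PDK1 (0.30), ERO1A (0.25) and VEGFA (0.21) higher. It placed ANKRD37 (log2 -0.41), ADM (-0.36) and PFKFB3 (-0.21) lower. SLC2A1 at -0.13 (adjusted p = 0.742) and NDRG1 at 0.13 (adjusted p = 0.639), named for their level, were not among the 8. At pH 6.4 against pH 6.9 VEGFA (log2 0.61) and NDRG1 (log2 0.29) rose, and the block called 4 higher and 4 lower. Of all genes 17% were called there without the block and 31.1% with it. The median log2 value of the 22 was 0.04, 0.11 and -0.05 in the 3 comparisons.

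The oestrogen receptor programme, which drives CA12 in receptor-positive tumours, had 6 of 9 genes tested. At pH 6.4 against pH 7.4 XBP1, which also serves the unfolded protein response, rose (log2 0.89) and AGR2 fell (log2 -0.77). This 1 rise and 1 fall among 6 tested stand beside 30.3% of all genes called. The replicate block called GATA3 lower as well, beside 41.6% of all genes called. At pH 6.9 against pH 7.4, where CA12 had its largest value, edgeR called 0 (1 at an unadjusted p under 0.05), limma voom called 0, and the replicate block and DESeq2 each called XBP1 higher. Of all genes edgeR called 0.724% there without the block and 5.4% with it. Without the block XBP1 stood at 0.36 (adjusted p = 0.126) and GATA3 at -0.10 (adjusted p = 0.925). XBP1 was also called at pH 6.4 against pH 6.9 (log2 0.53), where the block called 1 higher and 1 lower, XBP1 and GATA3 between them. Of all genes 17% were called in that comparison without the block and 31.1% with it. The median log2 value of the list was -0.52, -0.14 and -0.28 in the 3 comparisons. The inositol trisphosphate receptors, to which the nearly undetected CA8 binds, were all tested. At pH 6.4 against pH 7.4 ITPR2 rose (log2 0.49, adjusted p = 0.0101) and ITPR1 fell (log2 -0.56, adjusted p = 0.0149), with a median of -0.16 over the receptors. The block called ITPR3 as well. Of all genes 30.3% were called without the block and 41.6% with it in this comparison, and the list holds only 3 genes. In the other comparisons edgeR, DESeq2 and limma voom called 0 (0 and 1 by edgeR at an unadjusted p under 0.05). The block called ITPR2 higher at pH 6.4 than at pH 6.9, where it called 31.1% of all genes. By edgeR without the block ITPR3 stood at -0.05 (adjusted p = 0.872) for pH 6.9 against pH 7.4 and -0.11 (adjusted p = 0.311) for pH 6.4 against pH 6.9.

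**Figure D5:**
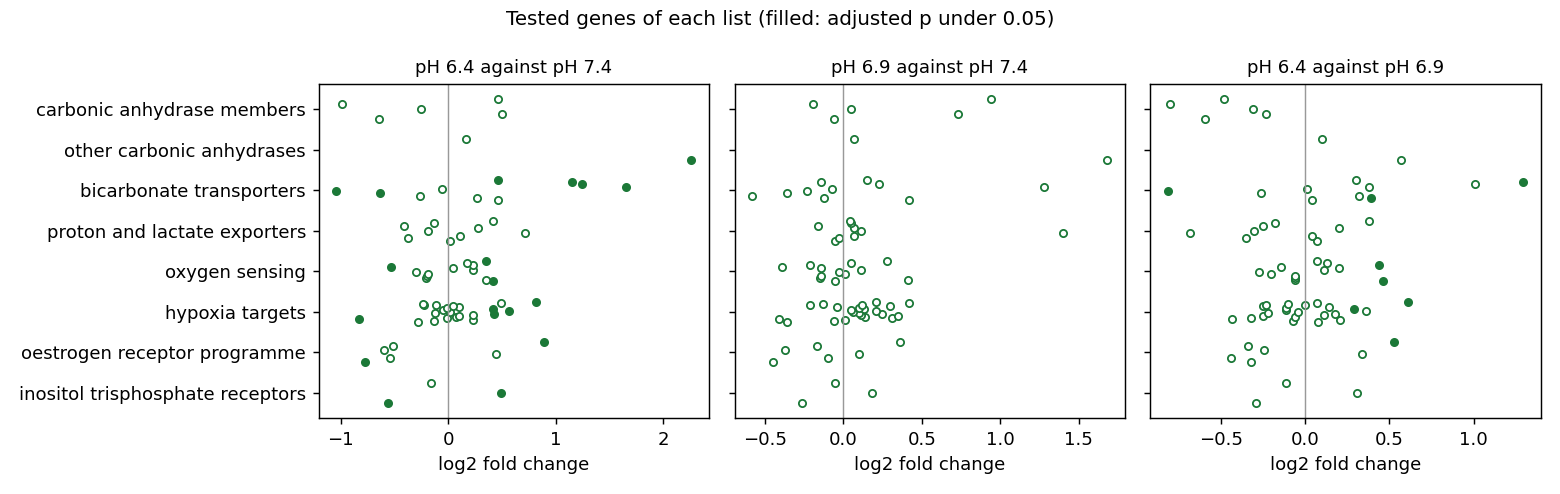
Log2 fold change (x axis) of every tested gene of each list in the 3 comparisons; filled points have an adjusted p under 0.05. Called genes lie on both sides of 0 in the bicarbonate transporter list at pH 6.4 against pH 7.4, and without a block no gene of these lists is called at pH 6.9 against pH 7.4.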

How the data were processed

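The authors deposited a table of raw gene counts for 12 libraries, made with STAR and featureCounts on GRCh38.p13 (hg38), per the submitters' processing notes. Libraries were made with a stranded poly(A) kit, per the labels' protocols. The sources used here give neither tool versions nor the strand and multi-mapping settings.

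The tests used edgeR 4.0.16 under R 4.3.3 (filterByExpr, TMM, robust quasi-likelihood test, 1 term per medium, 12 libraries), and with limma 3.58.1 and DESeq2 1.42.0 as alternatives. A gene was called where its p, adjusted over all tested genes by Benjamini and Hochberg's method, was under 0.05. CPM values are TMM scaled. Genes without a symbol held 0.32 to 0.424% of counts. All 12 pairs of libraries with the same repeat number deviated together from their group means (correlation 0.182 to 0.549). So did libraries of different media from repeats 1 and 2 (0.125 to 0.29) and from repeats 3 and 4 (0.163 to 0.295). Pairs across these sets correlated negatively. Same-number pairs were thus not clearly set apart, though 11 of 12 libraries correlated best with their own repeat. The numbers were taken to pair the samples. For the family and the partner lists, a fit with the repeat as a block is given where it changes a call. None of 66 library pairs were copies.

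Coordinates and exon lengths are from GENCODE release 29 (GRCh38) and promoter windows from a RefSeq table, of which matches for CA9 and CA12 are shown. The tests were checked on simulated data. Named genes were all family members, up to 4 called genes per list (or 2 by level), and the 3 most correlated genes with at least 5 CPM. Members and lists were chosen with earlier results of these data known. One gene of the exporter list is counted with its list and not reported here by name.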

Additional observations from a re-analysis of the deposited data

Results flagged for a closer look

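In 3 of 21 groups of 4 libraries that were examined, 1 library stood apart from the rest by more than Dixon's 95% limit, which chance exceeds in about 1 of 20 groups. These were CA9 at pH 6.4, where repeat 3 had 14.3 CPM and the others 5.85 to 7.26, CA12 at pH 7.4, where repeat 2 had 10.5 CPM and the others 6.79 to 7.36, and CA5B at pH 6.9, where repeat 2 had 19.3 CPM and the others 15.9 to 16.4.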

How the results depend on the processing

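Without a block, edgeR called 0 of the 5 tested carbonic anhydrases in each comparison. For pH 6.4 against pH 7.4 the count was 2 with the replicate block, 2 by DESeq2, 1 with library size only and 1 with no filter beyond 1 count. For pH 6.9 against pH 7.4 it was 2 with the replicate block, 2 by DESeq2, 2 with no filter and 1 when only these media were fitted. For pH 6.4 against pH 6.9 it was 2 with the replicate block. Without both repeat 3 at pH 6.4 and repeat 1 at pH 7.4, an omission chosen after seeing the data, the counts were 1, 1 and 3. Leaving out 1 library at a time gave 0 to 2, 0 to 1 and 0 to 3, the upper ends without repeat 3 at pH 6.4. The number of all genes called also moved under these omissions. It ran from 3795 to 6411, from 39 to 306 and from 1171 to 4944 in the same comparisons. The cause was not tested.

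Values of both signs arose for CA9 at pH 6.4 against pH 7.4 (-0.07 within repeats 1 and 2) and, at pH 6.9 against pH 7.4, for genes that were close to 0. Those were CA11 (0.04 within repeats 1 and 2, and -0.14 to 0.10 leaving out 1 library), CA13 (-0.02 within repeats 1 and 2, and 0.00 to 0.11 leaving out 1 library), CA2 (0.27 within repeats 3 and 4, 0.21 without the 2 libraries with the fewest genes, 0.05 without repeat 3 at pH 6.4 and repeat 1 at pH 7.4, and -0.45 to 0.06 leaving out 1 library) and CA5B (-0.02 without the 2 libraries with the fewest genes). The depth limits CA2 and CA3 most, with 0 to 52 reads per library, and CA8 and CA14 cannot be compared.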
